A study of Mus musculus with 20 samples.

Results

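Potassium channels that end the cardiac action potential were examined in mouse heart through 9 genes: *Kcnd2*, *Kcnd3*, *Kcnip2*, *Kcna5*, *Kcnh2*, *Kcnq1*, *Kcnj2*, *Kcnj3* and *Kcnj11*. The genes were chosen by symbol, each symbol was found on 1 row of the deposited table, and together they are 9 of its 29339 genes. Their transcript levels were followed across all 20 heart libraries by genotype, by labelled sex and by the amount of atrial transcripts in each library.

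Heart RNA came from C57BL/6 mice aged 8 weeks that were either wild type (WT) or TECRL-/- (KO), and no treatment was recorded for any group. *Tecrl* encodes an endoplasmic reticulum protein of cardiac and skeletal muscle, and its loss in patients is known to cause catecholaminergic polymorphic ventricular tachycardia. The labels gave 5 male WT, 5 male KO, 3 female WT and 7 female KO libraries. Of these, 12 are named S1 to S12 (3 of each group) and 8 are named WT1, WT2 and TKO1 to TKO6 (2 male WT, 2 male KO and 4 female KO). What the names stand for and how the knockout allele was built were not given in the sources used here. The study's methods describe libraries made from individual mice, but fewer of them than the 20 analysed here, so for some libraries it is not stated whether each had its own animal, and p-values measure the spread between libraries.

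The counts per library summed to between 12540002 and 20038593. The targeted gene *Tecrl* lay between 51.8 and 122 CPM (counts scaled by library size after TMM normalization) in the 20 libraries and did not separate the genotype labels, so groups are called by their labels. S7, S8 and S9 are labelled male WT but had 252 to 325 CPM of *Xist* and no Y-linked reads, and S4, S5 and S6 are labelled female KO but had 181 to 203 CPM of Y-linked genes and at most 0.256 CPM of *Xist*. In the S-named libraries, genotype label and sex-linked transcripts therefore cannot be told apart. An atrial index was formed for each library as the mean log2(CPM + 1) of *Myl7*, *Sln*, *Myl4*, *Bmp10* and *Dkk3*, none of which is a channel gene. It was 0.70 to 2.03 in 13 libraries and 4.50 to 10.2 in the other 7 (S5, S6, S7, S9, S10, S11 and S12), all of them S-named, 2 labelled WT and 5 labelled KO. The ventricular markers *Myl2*, *Myl3*, *Irx4*, *Hey2*, *Myh7*, *Myh6* and *Tnni3* were present in each library, and lung epithelial markers summed to at most 1.24 CPM. S7 further carried 679 CPM of 4 adipocyte markers, against at most 30.9 CPM in any other library.

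Cardiac repolarization is driven by potassium leaving the myocyte through several channel types. In the mouse, whose action potential is short, the fast transient outward current (pore subunits encoded by *Kcnd2* and *Kcnd3*, with the accessory subunit of *Kcnip2*) and the ultrarapid delayed rectifier (*Kcna5*) carry most of it, while the rapid and slow delayed rectifiers (*Kcnh2* and *Kcnq1*) dominate in large mammals. Inward rectifiers set the resting potential (*Kcnj2*), answer acetylcholine in the atria and nodes (*Kcnj3* with *Kcnj5*) or sense ATP (*Kcnj11* with a sulfonylurea receptor).

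The promoters of *Kcnip2*, *Kcnj2* and *Kcnj3* are shown because these 3 genes were called for a change with the atrial index, the first pair down and the last up. None of the 3 calls held without S7. Each sequence is the 250 bases before the RefSeq transcript start in GRCm38.p6, read 5′ to 3′ on the strand of the gene, at chr19:45816064-45816313 (minus strand), chr11:111065914-111066163 (plus strand) and chr2:55435720-55435969 (plus strand). Capitals mark matches to GGGCGG (GC box), CACGTG (E-box) or AGGTGT (T-box core, capitals ACACCT where it lies on the other strand), which were searched on both strands together with the letters TATAAA, the core of the TATA box, and AGATAA, bound by cardiac factors of the GATA family.
Kcnip2: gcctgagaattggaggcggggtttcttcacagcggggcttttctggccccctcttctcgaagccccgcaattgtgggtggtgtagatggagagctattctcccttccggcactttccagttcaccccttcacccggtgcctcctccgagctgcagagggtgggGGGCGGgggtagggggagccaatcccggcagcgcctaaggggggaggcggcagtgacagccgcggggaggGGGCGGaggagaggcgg
Kcnj2: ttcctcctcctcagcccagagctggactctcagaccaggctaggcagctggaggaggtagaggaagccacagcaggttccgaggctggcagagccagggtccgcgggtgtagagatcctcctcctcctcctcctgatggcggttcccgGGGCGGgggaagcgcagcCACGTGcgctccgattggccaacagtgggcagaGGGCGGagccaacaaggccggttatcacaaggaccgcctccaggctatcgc
Kcnj3: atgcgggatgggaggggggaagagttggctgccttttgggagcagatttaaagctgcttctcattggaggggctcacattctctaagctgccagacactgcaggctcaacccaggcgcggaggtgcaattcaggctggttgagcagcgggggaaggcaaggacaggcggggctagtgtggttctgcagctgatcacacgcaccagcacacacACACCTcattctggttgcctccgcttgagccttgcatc

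The *Kcnip2* and *Kcnj2* windows each held 2 GC boxes, the *Kcnj2* window 1 E-box, and the *Kcnj3* window no GC box and 1 T-box core. Among 32851 RefSeq windows of the same length, 32.7% held at least 1 GC box, 6.02% the E-box and 11.8% the T-box core. How many held 2 GC boxes was not counted, and a match is no evidence of binding. RefSeq promoter windows were matched for 7 of the 9 genes, the others being *Kcnq1* and *Kcnj11*, and the TATAAA letters and those of the GATA family were in none of the 7. GC content ran from 53.2% (*Kcna5*) to 73.6% (*Kcnh2*).

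To compare genes with each other, the deposited FPKM were used, since they are divided by transcript length. *Kcnip2* was highest with a median of 34.1 FPKM over 20 libraries, followed by *Kcna5* at 27.4, *Kcnj11* at 25.6 and *Kcnh2* at 15.2 FPKM. *Kcnj2* (7.87), *Kcnj3* (5.41) and *Kcnq1* (4.97) lay lower, and the pore genes of the transient outward current were lowest, *Kcnd2* at 1.84 and *Kcnd3* at 0.811 FPKM. The steps from *Kcnh2* to *Kcnj2* and from *Kcnq1* to *Kcnd2* were present in 20 of 20 libraries. The neighbours *Kcnip2* and *Kcna5* (13 of 20 libraries), *Kcna5* and *Kcnj11* (13 of 20), and *Kcnj3* and *Kcnq1* (11 of 20) were not separated beyond their spread. Even the scarcest gene was counted well above the floor of 3 counts, the lowest value being 65 counts of *Kcnd3* in TKO6.

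**Figure D1:**
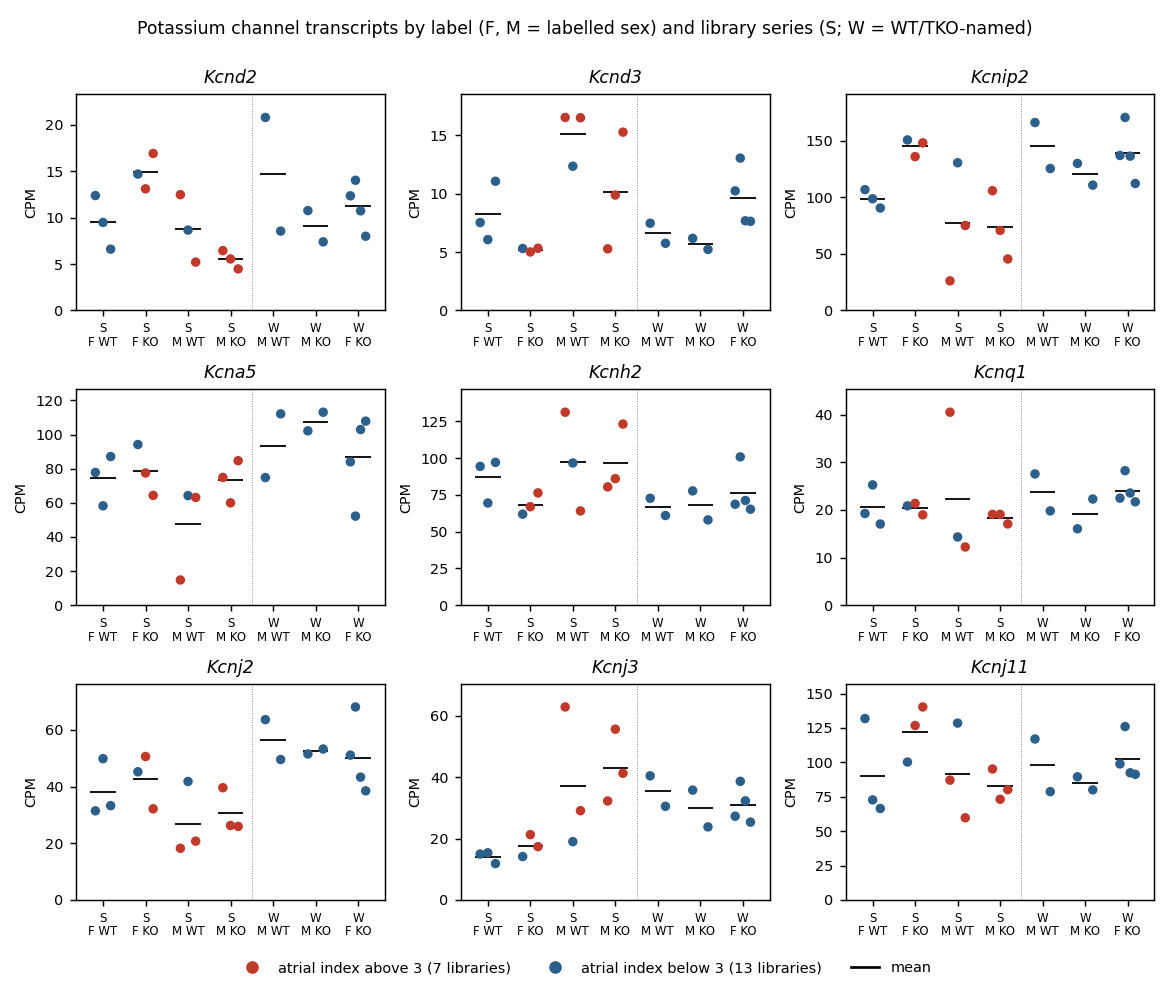
Transcript level of the 9 channel genes (y axis, CPM) in 20 heart libraries, grouped by library names (S or WT/TKO, the latter marked W) and by labelled sex and genotype (x axis), with 1 point per library, a line for each mean, and red for the 7 libraries with an atrial index above 3. The red points lie low for *Kcnip2* and *Kcnj2* in the S-named male groups. For *Kcnj3* S7, S11 and S12 are the highest points, but the red points of the S-named female KO group lie below every WT/TKO-named library. No panel separates the WT from the KO groups throughout.

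The first question was whether the channel transcripts differed between KO and WT. In the libraries labelled male, edgeR's quasi-likelihood test with library names as covariate called 0 of 9 genes at an adjusted p under 0.05, against a background of 0% of 14481 genes. By unadjusted p under 0.05 the numbers were 1 of 9 and 688 of 14481 genes (4.75%), and DESeq2 called 12 genes, none of the 9. In the libraries labelled female 0 of 9 were called, with a background of 0.0551% of 14511 genes, 3 of 9 had an unadjusted p under 0.05 (17.9% of all), and DESeq2 called 383 genes, among them 1 of the 9, *Kcnip2*. Over all 20 libraries 0 of 9 were called, again with a background of 0%, and 0 of 9 by unadjusted p under 0.05 (748 of 15187 genes, 4.93%) and by DESeq2 (12 genes). The median log2 fold change of the 9 genes was -0.17 in the male, 0.16 in the female and 0.0039 in the joint comparison, beside -0.015, -0.021 and -0.011 for all genes tested. These comparisons share no libraries between the sexes, whereas the joint estimate uses all of them.

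At the thresholds of the study's methods, an unadjusted p under 0.05 and a log2 fold change of 0.58 or more in either direction, 1 of 9 genes passed in the male libraries (*Kcnd2*, background 2.09%) and 2 of 9 in the female libraries (*Kcnd2* and *Kcnd3*, background 9.99%). The female estimate rests on S1, S2 and S3 against S4, S5 and S6, because all female WT libraries are S-named. The difference between the labelled sexes was tested as an interaction, and 0 of 9 genes were called (background 0%), while 1 of 9 and 2375 of 15187 genes (15.6%) had an unadjusted p under 0.05. Because the sex-linked transcripts of S4 to S9 go against their labels, this term does not measure a difference between the sexes.

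**Figure D2:**
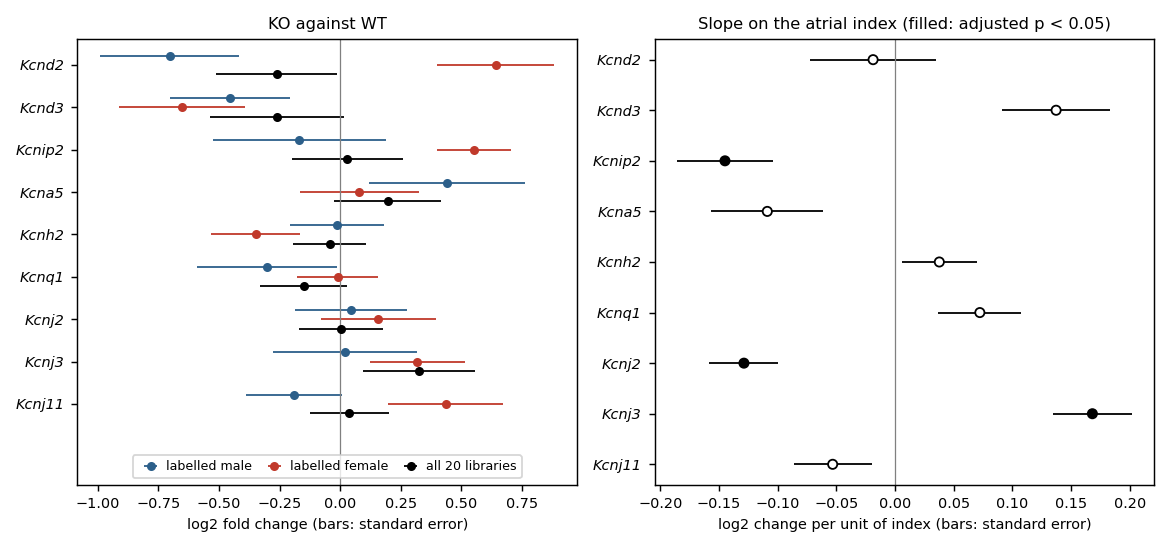
Left, log2 fold change of KO against WT for the 9 channel genes (x axis) in the libraries labelled male (blue), labelled female (red) and all 20 (black). Right, log2 change per unit of the atrial index over 20 libraries, filled where the adjusted p was under 0.05. Bars are standard errors. *Kcnd2* lies at -0.70 in male and 0.64 in female libraries, and the slopes of *Kcnj3*, *Kcnj2* and *Kcnip2* are filled.

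The second question was whether the genes followed the atrial content of the library. The slope on the atrial index, with genotype, labelled sex and library names as covariates, was called for 936 of 15187 genes (6.16%; 4.83% rising and 1.33% falling), and for 3 of the 9 channel genes, 1 rising (*Kcnj3*) and 2 falling (*Kcnj2* and *Kcnip2*). Of the 9, 0 separated the 7 libraries of high index from the 13 without overlap (background 0.198%). The index falls into 2 separate clusters of libraries, and without S7, S9, S11 and S12, the 4 of highest index, 0 of the 9 and 6 genes in all were called. In bulk tissue fewer cells of a type and less RNA per cell cannot be told apart. Without S7 the 3 genes kept their directions but 0 of the 9 were called, and the count over all genes fell to 187. Within the S-named libraries alone 0 of 9 were called (14 genes in all), with slopes of 0.14 for *Kcnj3*, -0.12 for *Kcnj2* and -0.14 for *Kcnip2*.

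Other cell type markers moved with the atrial index. The 7 atrial markers *Myl7*, *Sln*, *Myl4*, *Bmp10*, *Dkk3*, *Nppa* and *Stard10* summed to 35.9 to 69.6 CPM in the 13 libraries and to between 290 and 8054 CPM in the 7. The first 5 of these genes make up the index, so this separation follows from how the libraries were divided. *Bmp10* was at 0 in S6 and S10 and reached 2093 CPM in S7. The 4 fibroblast markers summed to 602 to 795 CPM against 682 to 1147 CPM, the 4 adipocyte markers to 0.241 to 11.1 CPM against 4.67 to 679 CPM, and the 4 pericyte markers to 989 to 1367 CPM against 420 to 1258 CPM. Of the 7 ventricular markers 6 had a slope below 0 on the index and 1 of them was called, *Myl3* (-0.11, adjusted p = 0.0133), which was at 5474 to 7797 CPM in the 13 libraries and at 2432 (S7) to 6783 CPM in the 7. *Myl2* had -0.10 (adjusted p = 0.0617), and *Myh7*, the slow myosin heavy chain, rose (0.22, adjusted p = 0.0223). Of 3 mesothelial markers 2 were called higher, and their sum was 9.20 to 56.8 CPM in the 13 libraries and 8.50 (S6) to 294 CPM (S7) in the 7. The part of these markers in the results was not tested beyond a fit with the adipocyte level as a further covariate, in which 0 of the 9 genes and 93 genes in all were called.

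**Figure D3:**
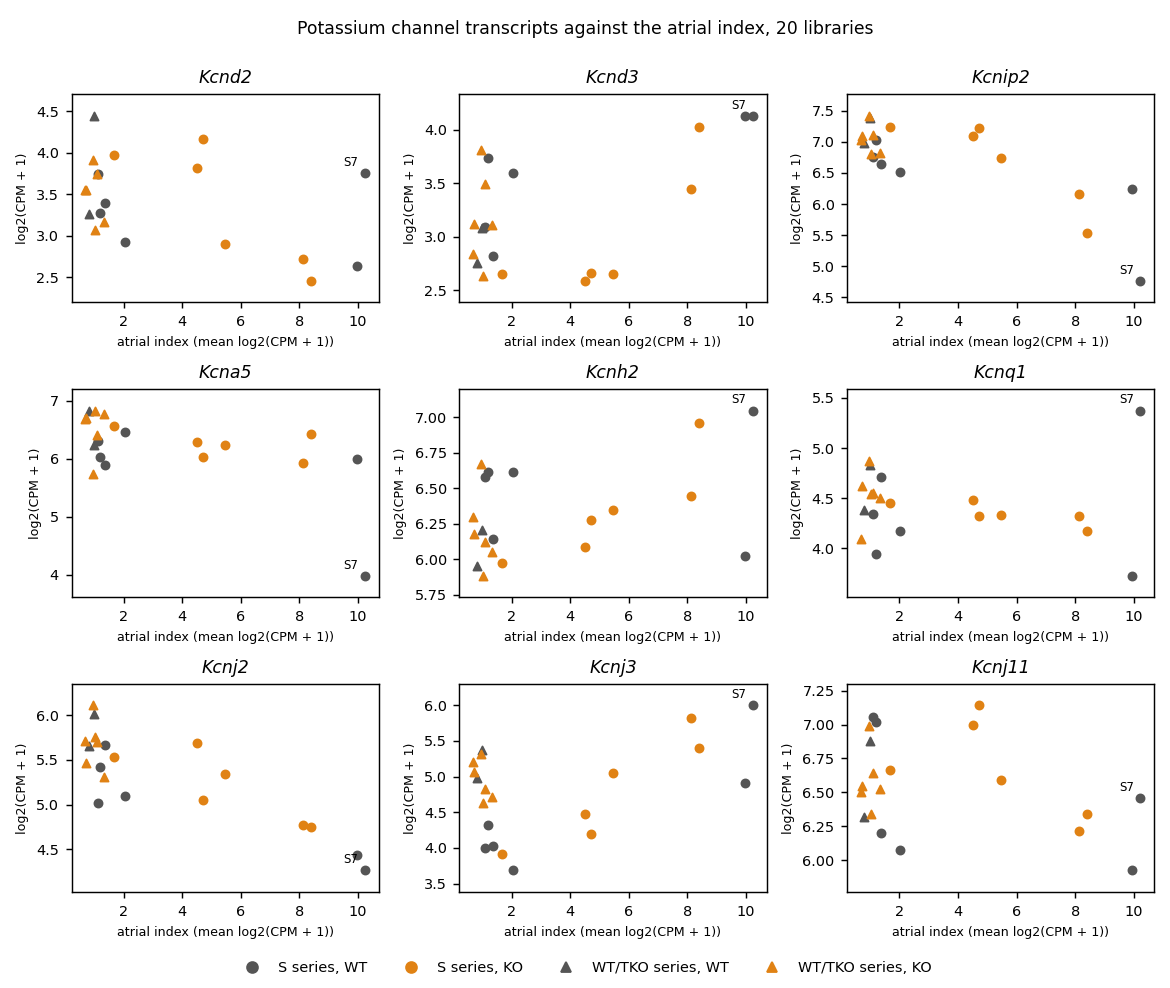
Level of each channel gene, log2(CPM + 1), against the atrial index of the library, the mean log2(CPM + 1) of 5 atrial genes, with 1 point per library (circles S-named, triangles WT/TKO-named, grey WT, orange KO) and S7 marked. 13 libraries lie between 0.70 and 2.03 on the index and 7 between 4.50 and 10.2. S7, S9, S11 and S12, on the right, lie below all of the 13 for *Kcnj2* and *Kcnip2*. For *Kcnj3* S7, S11 and S12 lie above all of the 13, but S5 and S6 lie below every WT/TKO-named library. S7 is at an extreme of all 3 genes.

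Among the genes of the transient outward current, *Kcnd2* (chromosome 6, 21215503 to 21729805, GRCm38, 6 merged exons) encodes its main pore subunit in mouse ventricle. *Kcnd2* was at 5.22 (S9), 8.56 (WT2), 8.67 (S8), 12.5 (S7) and 20.8 CPM (WT1) in the male WT libraries and at 4.48 (S12), 5.56 (S11), 6.45 (S10), 7.40 (TKO6) and 10.8 CPM (TKO5) in the male KO libraries. The WT libraries reached higher, but the ranges overlapped, and the fitted KO against WT difference was -0.70 on the log2 scale (SE 0.288, adjusted p = 0.882, the 1 male value with an unadjusted p under 0.05), and -0.45 without WT1. In the libraries labelled female the order was turned. The WT libraries were at 6.61 (S3), 9.49 (S2) and 12.4 CPM (S1), and the 7 KO libraries ran from 8.00 to 16.9 CPM with a median of 13.1. All of S4, S5 and S6, at 14.7, 13.1 and 16.9 CPM, lay above the female WT libraries, while TKO1 to TKO4, at 8.00 to 14.0 CPM, overlapped them. The female log2 fold change of *Kcnd2* was 0.64 (standard error 0.243, adjusted p = 0.219). It was 0.24 without S4 to S9, whose sex-linked transcripts go against their labels. That fit compares S1 to S3 with TKO1 to TKO4, where genotype and library names cannot be told apart. The interaction with labelled sex was 0.99 (standard error 0.456, adjusted p = 0.305). The interaction was estimated in 1 fit over all 20 libraries with a library name term shared by both sexes, and is therefore not the plain difference of the male and female values. The slope of *Kcnd2* on the atrial index was -0.019 log2 units per unit of index (standard error 0.0539, adjusted p = 0.899).

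*Kcnd3* (chromosome 3, 105452330 to 105674002) encodes the second pore subunit of this current. It was at 5.75 (WT2), 7.47 (WT1), 12.4 (S8), 16.5 (S7) and 16.5 CPM (S9) in male WT and at 5.23 (TKO6), 5.28 (S10), 6.18 (TKO5), 9.89 (S11) and 15.3 CPM (S12) in male KO. In female WT it was at 6.07 (S2), 7.53 (S1) and 11.1 CPM (S3), and the KO libraries ran from 5.01 to 13.1 CPM (median 7.64). The groups overlapped in both sexes, with log2 fold changes of -0.45 (standard error 0.248, adjusted p = 0.882) and -0.65 (standard error 0.261, adjusted p = 0.237). The male value was -0.26 without S10. The female value was -0.39 without S3 and -0.086 without library names as covariate, and it was turned, to 0.23, without S4 to S9. That last fit compares S1 to S3 with TKO1 to TKO4, where genotype and library names cannot be told apart. S4, S5 and S6 were alike at 5.01 to 5.33 CPM and below all 3 female WT libraries, whereas TKO1 to TKO4 lay at 7.64 to 13.1 CPM. The slope of *Kcnd3* on the atrial index was 0.14 (standard error 0.0459, adjusted p = 0.0835), and 0.23 (adjusted p = 0.00894) without S8. It was turned, to -0.12 without S7, S9, S11 and S12 and to -0.19 in the WT/TKO-named libraries alone, and was not called in either. A share of 1.72% of its exon length overlaps *Kcnd3os* on the opposite strand, and the library kit does not mark strand. The ratio of *Kcnd3* to *Kcnd2* FPKM had a median of 0.412 and was above 1 in S9 (1.70) and S12 (1.83), both with a high atrial index.

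*Kcnip2* (chromosome 19, 45791839 to 45816061, minus strand) encodes the accessory subunit KChIP2, which brings these pore subunits to the membrane and slows their inactivation. It was at 26.1 (S7), 75.0 (S9), 125 (WT2), 130 (S8) and 166 CPM (WT1) in male WT and at 45.4 (S12), 70.7 (S11), 106 (S10), 111 (TKO6) and 130 CPM (TKO5) in male KO. The lowest library of each male group was the one with the highest atrial index. In female WT *Kcnip2* was at 90.4 (S3), 98.6 (S2) and 107 CPM (S1), and the 7 KO libraries ran from 112 to 170 CPM with a median of 137. All 7 female KO libraries thus lay above all 3 female WT libraries, 1 of 9 channel genes to do so where the background was 2.54% of 15187 genes, and the distance from S1 to TKO4 was small. On the log2 scale the fitted difference was 0.55 in the female libraries (SE 0.151, adjusted p = 0.149) and -0.17 in the male libraries (standard error 0.357, adjusted p = 0.936). The 8 clock genes *Arntl*, *Dbp*, *Per1*, *Per2*, *Nr1d1*, *Nr1d2*, *Tef* and *Ciart* summed to 596 to 923 CPM in the female WT and 464 to 642 CPM in the female KO libraries, and their part in this difference was not tested. The female value of *Kcnip2* passed an adjusted p of 0.05 with DESeq2 (0.0370, 383 genes called), without the filter on low counts (0.0354, 1110 genes) and without S1 (0.0238, 2409 genes). It did not pass with RLE normalization, without library names as covariate, in the S-named libraries alone, without S4 to S9, with the atrial index as covariate or without any other single library, where the adjusted p ran from 0.102 to 0.604 and the estimate from 0.49 to 0.68.

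*Kcnip2* lay between 90.4 and 170 CPM (median 130) in the 13 libraries with a low atrial index and between 26.1 and 148 CPM (median 75.0) in the 7 others. S5 and S6, at 136 and 148 CPM, were within the range of the 13, and S7, S9, S11 and S12 were below all of them, with S12, at 45.4 CPM, the lowest after S7. The slope was -0.14 log2 units per unit of index (standard error 0.0407, adjusted p = 0.0385). It rested on these 4 libraries, since it was 0.0076 without them, and leaving out any 1 of S4, S7, S8, S10, S11, WT2, TKO1, TKO3 and TKO4 took the adjusted p above 0.05, up to 0.249 without S7. Leaving out 1 library at a time, the slope ran from -0.22 (without S9) to -0.096 (without S7). The promoter shown above is that of this gene. *Kcnip2* per *Kcnd2* FPKM had a median of 17.9 and was 3.10 in S7 and 11.8 to 24.3 elsewhere.

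The ultrarapid delayed rectifier is represented by *Kcna5* (chromosome 6, 126532551 to 126535412, minus strand, a gene of 1 exon). It ranged from 14.8 CPM in S7 to 113 CPM in TKO6, and without S7 the lowest library was TKO2 at 52.2 CPM. The male WT libraries were at 14.8 (S7), 63.2 (S9), 64.2 (S8), 74.8 (WT1) and 112 CPM (WT2), and the male KO libraries at 60.0 (S11), 74.9 (S10), 84.7 (S12), 102 (TKO5) and 113 CPM (TKO6). The groups overlapped, and the fitted difference was 0.44 on the log2 scale (SE 0.323, adjusted p = 0.882; 0.20 without S7) in male and 0.079 (standard error 0.245, adjusted p = 0.90) in female libraries. The slope on the atrial index was -0.11 (standard error 0.0479, adjusted p = 0.203) and -0.04 without S7.

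*Kcnh2* (chromosome 5, 24319589 to 24351604, minus strand) encodes the pore of the rapid delayed rectifier and *Kcnq1* (chromosome 7, 143106362 to 143427042) that of the slow delayed rectifier. *Kcnh2* was at 58.0 to 131 CPM with a coefficient of variation of 25.1%, and its log2 fold changes were -0.013 (standard error 0.194, adjusted p = 0.994) in male and -0.35 (standard error 0.184, adjusted p = 0.338) in female libraries. The highest value, in S7, was followed by 123 CPM in S12. *Kcnq1* lay at 12.2 to 28.2 CPM in 19 libraries and at 40.5 CPM in S7. Its log2 fold changes were -0.30 (standard error 0.289, adjusted p = 0.882) in male and -0.010 (standard error 0.166, adjusted p = 0.984) in female libraries, and the male value was 0.10 without S7. The slopes on the atrial index were 0.038 for *Kcnh2* and 0.072 for *Kcnq1*, neither called (adjusted p = 0.570 and 0.266), but that of *Kcnq1* was 0.12 (adjusted p = 0.0165) without S9 and -0.022 without S7. *Kcnq1* shares 2.96% of its exon length with *Kcnq1ot1* on the opposite strand.

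*Kcnj2* (chromosome 11, 111066164 to 111076821) encodes the main pore of the inward rectifier that holds the ventricular resting potential. Its WT and KO libraries overlapped in both sexes, with 18.2 to 63.6 CPM in male WT (median 41.8), 25.9 to 53.2 CPM in male KO (median 39.6), 31.4 to 49.8 CPM in female WT (median 33.3) and 32.1 to 68.1 CPM in female KO (median 45.2). The log2 fold changes were 0.045 (standard error 0.231) and 0.16 (standard error 0.238), with adjusted p = 0.976 and 0.764, and the female value was 0.018 without S5. In the 7 libraries with a high atrial index *Kcnj2* was at 18.2 (S7), 20.7 (S9), 25.9 (S12), 26.3 (S11), 32.1 (S6), 39.6 (S10) and 50.6 CPM (S5), and in the 13 others at 31.4 to 68.1 CPM with a median of 49.5. The 4 libraries with the highest index were below all of the 13, and the other 3 were within their range. The slope was -0.13 (standard error 0.0294, adjusted p = 0.0117), -0.12 without S7 (adjusted p = 0.108) and -0.014 without S7, S9, S11 and S12.

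*Kcnj2* was also the 1 gene of the 9 called between the library names, where 16.4% of 15187 genes were called. It was at 38.5 to 68.1 CPM in the 8 WT/TKO-named and 18.2 to 50.6 CPM in the 12 S-named libraries, a log2 difference of 0.62 (standard error 0.172, adjusted p = 0.0187) that was 0.53 (adjusted p = 0.0663) without WT1. With the atrial index as a covariate the difference was 0.092 (adjusted p = 0.817), and within the 13 libraries with a low index it was 0.32 (adjusted p = 0.571). Markers of other cell types differed between the names as well, and all 7 atrial markers (median -5.99) and all 3 adipocyte markers tested (median -5.35) were called lower in the WT/TKO-named libraries, as were 2 of the 8 clock genes. The macrophage genes *Csf1r* (-0.63), *C1qa* (-0.62) and *Adgre1* (-0.73) were called lower in the WT/TKO-named libraries, with *Cd68* at -0.54 (adjusted p = 0.0976), and the 4 summed to 73.6 to 100.3 CPM against 93.3 to 197 CPM. Of the red blood cell genes *Hbb-bs*, *Hba-a1* and *Alas2* 0 of 3 were called, at -1.06 to -1.26, and *Cnn1* of the smooth muscle (-1.40) and *Sox10* of the Schwann cell markers (-1.10) were called lower and the pericyte marker *Abcc9* higher. Their part in the difference of *Kcnj2* was not tested.

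*Kcnj3* (chromosome 2, 55435970 to 55598145) encodes a pore subunit of the acetylcholine-activated inward rectifier, which in mouse heart is known chiefly from atria and nodes. It was at 19.0 (S8), 29.1 (S9), 30.5 (WT2), 40.5 (WT1) and 62.9 CPM (S7) in male WT and at 23.8 (TKO6), 32.3 (S10), 35.8 (TKO5), 41.3 (S12) and 55.6 CPM (S11) in male KO. These ranges overlapped, and the log2 fold change of *Kcnj3* was 0.020 (standard error 0.296, adjusted p = 0.994). In female WT it was at 11.9 (S3), 15.0 (S1) and 15.4 CPM (S2) and in female KO at 14.1 to 38.7 CPM (median 25.4). Only S4, at 14.1 CPM, of the 7 female KO libraries fell among the WT values. The log2 fold change, which rests on the S-named libraries, was 0.32 (standard error 0.197, adjusted p = 0.414) and 0.16 without S5. It was 0.13 (adjusted p = 0.884) with the atrial index as covariate, which is high in S5 and S6 and in no female WT library. Comparing TKO1 to TKO4 with S1 to S3 instead gave 1.13 (adjusted p = 0.0142), where genotype and library names cannot be told apart.

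In the 7 libraries with a high atrial index *Kcnj3* was at 17.4 (S6), 21.3 (S5), 29.1 (S9), 32.3 (S10), 41.3 (S12), 55.6 (S11) and 62.9 CPM (S7). The 13 others ran from 11.9 to 40.5 CPM, so that S7, S11 and S12 were above all of them. The slope of *Kcnj3* was 0.17 (standard error 0.0335, adjusted p = 0.00506), the steepest of the 9 genes, and 0.13 without S7 (adjusted p = 0.121). It was 0.16 without S7, S9, S11 and S12 (adjusted p = 0.9996) and was turned, to -0.76 (adjusted p = 0.9999), in the 8 WT/TKO-named libraries, whose index only spans 0.70 to 1.34.

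The 13 libraries with a low atrial index were not alike in *Kcnj3*. The 5 S-named ones were at 11.9 (S3), 14.1 (S4), 15.0 (S1), 15.4 (S2) and 19.0 CPM (S8), and the 8 WT/TKO-named ones at 23.8 to 40.5 CPM with a median of 31.4. No S-named library reached a WT/TKO-named one. *Kcnj3* was the 1 gene of 9 without overlap, against 3.88% of 15187 genes in either direction and 1.53% with the WT/TKO-named libraries higher. The log2 difference was 1.10 (adjusted p = 0.0223) in these 13 libraries, a set chosen after the index was seen, and 1.02 (adjusted p = 0.00999) in all 20 with the index as covariate, but 0.28 (standard error 0.223, adjusted p = 0.397) in all 20 without it. A lincRNA, *Gm26794*, overlaps 31.1% of the exon length of *Kcnj3* on the opposite strand, and it had at most 0.675 CPM in any library.

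**Figure D4:**
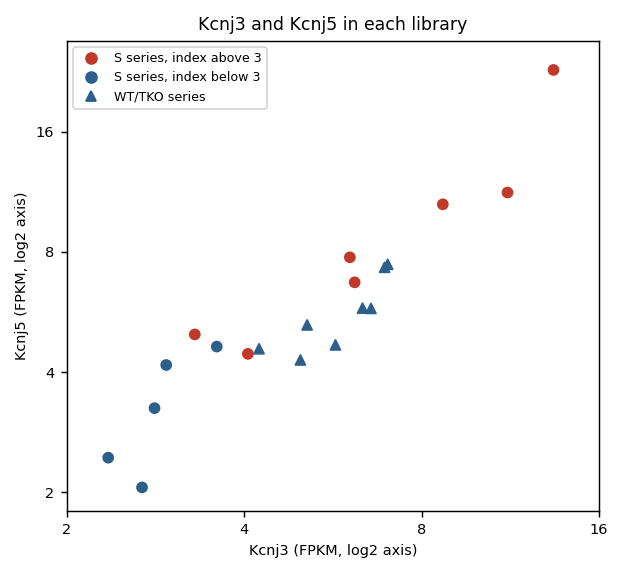
FPKM of *Kcnj5* (y axis) against *Kcnj3* (x axis), both on log2 axes, with 1 point per library, circles for S-named and triangles for WT/TKO-named libraries, and red for an atrial index above 3. The 5 S-named libraries with a low index lie at the lower left and S7 at the upper right, and the 8 WT/TKO-named libraries lie between them, with a median of 6.03 FPKM of *Kcnj3*.

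*Kcnj5*, which encodes the partner subunit of *Kcnj3* in the atrial channel, rose with the atrial index as well (0.20 per unit, standard error 0.0419, adjusted p = 0.00722). It was at 10.6 to 38.4 CPM in the 13 libraries (median 22.5) and at 20.9 to 96.3 CPM in the 7 (median 37.2). S7 was the highest library, and the slope was not examined without it. The ratio of *Kcnj3* to *Kcnj5* FPKM stayed between 0.587 (S7) and 1.30 (S2). Between the 5 S-named and the 8 WT/TKO-named libraries of low index, *Kcnj5* overlapped, with the highest S-named library (S8) above TKO4, and had medians of 14.6 and 25.8 CPM.

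The ATP-sensitive channel is represented by *Kcnj11* (chromosome 7, 46093953 to 46100764, minus strand), which encodes its pore in cardiac myocytes. *Kcnj11* was at 59.7 (S9) to 140 CPM (S6) with a coefficient of variation of 24.6%. Male WT libraries ran from 59.7 to 129 CPM and male KO from 73.2 to 95.2 CPM, female WT from 66.5 to 132 CPM and female KO from 91.3 to 140 CPM. The groups overlapped, with log2 fold changes of -0.19 (standard error 0.199, adjusted p = 0.882) and 0.44 (standard error 0.236, adjusted p = 0.350), and S1, at 132 CPM, was the 1 female WT library among the KO values. The male value was -0.014 without S8 and the female value 0.26 without S3. Without S1 the female value was 0.81 (adjusted p = 0.0104), and *Kcnd2* (0.88) and *Kcnip2* (0.61) were then called as well, among 2409 genes in all. The slope on the atrial index was -0.053 (standard error 0.0332, adjusted p = 0.410). Leaving out 1 library at a time, it ran from -0.078 (without S7) to -0.022 (without S8).

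The receptors that pair with this pore had slopes of opposite sign on the atrial index. S7 was the highest library for *Abcc8* and the lowest for *Abcc9*, and neither slope was examined without it. *Abcc8*, which encodes the sulfonylurea receptor known from mouse atrial channels, rose with the atrial index (0.12 per unit, standard error 0.031, adjusted p = 0.029), with at most 46.1 CPM in the 13 libraries. S11 (57.5 CPM) and S7 (87.5 CPM) were above all of the 13, and the other 5 of the 7, at 28.2 to 44.6 CPM, were within their range. *Abcc9*, the receptor of ventricular and vascular channels, fell (-0.099, standard error 0.0246, adjusted p = 0.0197), from 146 to 331 CPM to 85.2 to 206 CPM. *Kcnj8*, the pore of vascular channels, had a slope of -0.085 (standard error 0.0245, adjusted p = 0.0437), but S7, at 24.3 CPM, was the 1 library of the 7 below the 44.3 to 69.1 CPM of the 13, the other 6 being at 49.2 to 75.7 CPM. *Kcnj8* and *Abcc9* are both among the 4 pericyte markers given above. The FPKM ratio of *Abcc8* to *Abcc9* was 0.106 to 0.293 in the 13 libraries and 0.162 to 1.06 in the 7, the highest in S7.

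Other potassium channel and accessory genes were taken as a list of 57 symbols, of which 55 were found and 38 were tested over all 20 libraries. With the atrial index 3 rose and 2 fell, namely *Kcnj5*, *Abcc8* and *Kcna4* (0.37 per unit, adjusted p = 0.00167), and *Abcc9* and *Kcnj8*, beside 4.83% of all genes rising and 1.33% falling. None of these slopes was examined without S7. *Kcna4*, a pore gene of the slow transient outward current, was near the detection limit at 0.144 to 1.82 CPM. The median slope of the list was -0.014 and that of the 9 genes -0.019, beside -0.00044 for all genes. Between the library names 4 were higher in the WT/TKO-named libraries (among them *Abcc9* 0.73, *Kcnk2* 0.89 and *Kcnv2* 0.56) and 3 lower (*Kcnab2* -1.14, *Kcnj15* -0.98 and *Kcnt2* -0.56), with adjusted p from 0.00203 to 0.0492, 7 of 38 beside 16.4% of all genes.

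Between KO and WT none of the list was called by edgeR in the male (0 of 36), female (0 of 35) or joint comparison (0 of 38), and 1, 10 and 4 had an unadjusted p under 0.05, beside 4.75%, 17.9% and 4.93% of all genes. The smallest p belonged to *Kcnc4* (1.27) and *Kcnk5* (-0.56) in male libraries, to *Kcnc1* (2.83), *Kcna7* (1.42) and *Kcnn2* (0.77) in female libraries and to *Kcnk1* (-1.42), *Kcnc1* (1.37) and *Kcnc4* (0.98) in all. *Kcnc1*, a gene of fast-spiking neurons, was at 0.0719 to 0.323 CPM in female WT and 0.439 to 1.85 CPM in female KO, at most 27 counts (adjusted p = 0.091). In the interaction with labelled sex *Kcna7* (1.41) and *Kcnab3* (-1.53) were among the genes with the smallest p, at adjusted p = 0.301 and 0.306.

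Transcription factors known to act on these genes were compared with them across libraries as log2(CPM + 1). The permutations treated all 20 libraries as exchangeable, although they share names, index and sex-linked differences, so the p-values can be too small. How many of all genes reach such correlations was not counted. *Klf15*, which encodes a circadian regulator of *Kcnip2*, followed *Kcnd2* with Pearson's r = 0.70 (permutation p = 0.0009, adjusted p = 0.0027 over 3 relations) and Spearman's rho = 0.66 (permutation p = 0.0022, adjusted p = 0.0033) over 20 libraries. The value was 0.64 in the 12 S-named and 0.81 in the 8 WT/TKO-named libraries, and 0.63 without S9 and TKO2, the libraries farthest from the median of *Klf15*. For *Klf15* and *Kcnip2* r was 0.47 (permutation p = 0.036, adjusted p = 0.054) and rho 0.70 (permutation p = 0.00084, adjusted p = 0.00252). This relation was not alike in the library names: r was 0.24 in the S-named and 0.89 in the WT/TKO-named libraries, 0.39 without S9 and TKO2, and 0.80 without S7. *Irx5*, which encodes a repressor of *Kcnd2* in the ventricular wall, gave r = -0.42 (permutation p = 0.0605, adjusted p = 0.0605) and rho = -0.42 (permutation p = 0.0706, adjusted p = 0.0706), with -0.83 in the S-named and 0.34 in the WT/TKO-named libraries and -0.18 without S4 and S6.

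Finally, for each channel gene the genes with the most similar pattern were ranked among 10034 genes by Pearson's r of log2(CPM + 1) over 20 libraries, as a description, since the libraries share their names, index and sex-linked differences. *Kcnj3* had *Kcnj5* first (0.918, and 0.952 and 0.887 in the S-named and WT/TKO-named libraries), then *Abat* and *Angpt1*. *Kcnd2* had *Ppargc1a* (0.944), *Slc20a2* and *Pacsin2*, *Kcnip2* had *Lrrc2* (0.927), *Hmgn2* and *Cdk18*, and *Kcna5* had *Zfp866* (0.945), *Neurl1b* and *Zfp366*. *Kcnj2* had *Herpud1* (0.920), *Fsd1l* and *Pdp2*, *Kcnj11* had the mitochondrial genes *Atpaf1* (0.932) and *Afg3l2* with *Gnpat*, and *Kcnq1* had *Agap1* (0.878), *Dip2c* and *Lrrc1*. *Kcnd3* had *Pbxip1* (0.861), *Osbpl5* and *Ptpru*, the last with -0.19 in the WT/TKO-named libraries, and the loosest top value was that of *Kcnh2* with *Cpt1a* (0.783), ahead of *Rbpms2* and *Pbxip1*. Among the 9 genes themselves *Kcnip2* and *Kcnj2* were closest (0.823, and 0.791 and 0.763 within the names), and *Kcna5* and *Kcnh2* were most opposed (-0.62, and -0.48 and -0.86 within the names).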

How the data were processed

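Poly(A) RNA of mouse heart was sequenced as paired-end reads in 20 libraries, after TRIzol extraction and preparation with a NEBNext Ultra kit, which does not mark strand. The authors deposited 1 table with the count of reads per gene and library, without normalization, and the FPKM calculated from these counts, in which the lengths of the 9 channel genes equal the summed exon lengths of GENCODE M21. The submitters' processing notes name HISAT2, HTSeq 0.6.1p2, DESeq2 1.26.0 and GRCm38, and strand settings were not given in the sources used here. Groups were taken from the labels. Counts with at least 10 reads in at least 3 libraries were normalized by TMM and tested with edgeR 4.0.16 (quasi-likelihood test, R 4.3.3), with library names as covariate, Benjamini-Hochberg adjustment over all genes tested and calls at an adjusted p under 0.05. CPM are TMM-normalized, and log2 levels use a pseudocount of 1 CPM. The fits were tested on simulated data first. All 44 pairs of libraries within groups differed beyond counting noise. Correlations used permutation tests with 100000 resamples.

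The 9 genes and all lists were chosen with earlier results of these data known. Named besides the 9 genes are those of the list of other potassium channel genes with an adjusted p under 0.05 (otherwise the 3 with the smallest p), a few of which are not reported here, the 3 most similar genes of each channel gene with a mean of at least 5 CPM, marker genes, *Tecrl* and transcription factors. The pairs quoted among the 9 genes were picked with their values in view. DESeq2 1.42.0, RLE normalization, no filter, other covariates, subsets of libraries and omission of each library served as alternatives. Python 3.11.15 and matplotlib 3.10.9 drew the plots.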

Additional observations from a re-analysis of the deposited data

Results flagged for a closer look

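In the 7 libraries labelled female KO, *Kcnh2* was at 101 CPM in TKO2, and the other 6 libraries lay between 61.9 and 76.3 CPM. This gap was 0.629 of the range of the group, above Dixon's 95% critical value for 7 samples. It was the 1 library that stood out among 27 groups examined, each the values of 1 of the 9 channel genes in 1 labelled group of 4 to 10 libraries, and chance alone marks about 1 in 20 such groups.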

How the results depend on the processing

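No genotype value of a channel gene whose sign turned under an alternative was called under it, and the cause of such turns was not tested. With DESeq2, 12 genes were called in male and 383 in female libraries (1 of the 9), 12 in all 20 and 19 in the interaction, and *Kcnj2* in all 20 was -0.0053 (-0.0060 with RLE normalization). Without a filter these counts were 59, 1110 (1 of the 9), 3 and 129. Without library names as covariate, 2 genes were called in female libraries, and *Kcnj2* was -0.0041 in male libraries and 0.28 in the interaction and *Kcnq1* 0.13 in female libraries. In the S-named libraries alone, KO against WT called 5 genes in male and 9 in all, with *Kcnd2* at 0.0069 in all, and the atrial slope called 0 of the 9 and 14 genes, with *Kcnd2* at 0.018.

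Without S4 to S9, *Kcnh2* was 0.0063, *Kcnj2* -0.13 and *Kcnj3* -0.27 in male libraries. In female libraries the fit then has no library name term, and genotype and names cannot be told apart. There 1 of the 9 (*Kcnj3*) and 366 genes were called, *Kcnd3* was 0.23 and *Kcnq1* 0.22. In all libraries 13 genes were called, *Kcnd3* was 0.35, *Kcnip2* -0.25, *Kcna5* -0.035, *Kcnh2* 0.15, *Kcnj2* -0.23 and *Kcnj11* -0.062. The atrial slope then called 0 of the 9 and 2 genes, and the library names 3 of the 9, with *Kcnj11* at 0.16. With the Y-linked level as covariate, *Kcnj2* was -0.16 and *Kcnj3* -0.29 in male libraries, and in all libraries 7 genes were called, with *Kcnd3* at 0.35, *Kcnip2* -0.25, *Kcna5* -0.028, *Kcnh2* 0.15, *Kcnj2* -0.23 and *Kcnj11* -0.055. This fit was not run for the female libraries, in which Y-linked level, genotype and names could not be fitted together. With the atrial index as covariate, *Kcnq1* was 0.095 in female libraries, *Kcnj2* 0.27 in the interaction, and the names called 523 genes, with *Kcnd3* at 0.45, *Kcnip2* -0.079 and *Kcna5* -0.039.

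The alternatives of this paragraph up to *Kcnq1* at -0.020 were added after seeing the data. In the 13 libraries with a low atrial index, KO against WT called 1 gene, with *Kcnj3* at -0.12 and *Kcnj11* at -0.0083, and the names called 107 genes, with *Kcnd3* at 0.075. Without S7, S9, S11 and S12 the atrial slope called 0 of the 9 and 6 genes, with *Kcnd2* at 0.076, *Kcnd3* -0.12, *Kcnip2* 0.0076, *Kcnh2* -0.015 and *Kcnj11* 0.040. With the adipocyte level as covariate it called 0 of the 9 and 93 genes, with *Kcnh2* at -0.015 and *Kcnq1* at -0.020. The slope called 2895 genes without covariates and 360 with the index from *Myl7* alone (*Kcnd2* 0.0012). In the WT/TKO-named libraries alone it called 0 of the 9 and 1 gene, with *Kcnd3* at -0.19, *Kcna5* 0.11, *Kcnh2* -0.51 and *Kcnj3* -0.76.

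Leaving out 1 library at a time, the male comparison called 0 to 1 genes and ran from -0.12 to 0.15 for *Kcnh2*, -0.18 to 0.33 for *Kcnj3*, -0.45 to 0.10 for *Kcnq1*, -0.096 to 0.28 for *Kcnj2* and -0.39 to 0.15 for *Kcnip2*. The female comparison called 0 to 3 of the 9 and 1 (without S6) to 2409 genes (without S1), and ran from -0.072 to 0.21 for *Kcna5* and -0.12 to 0.16 for *Kcnq1*. All libraries gave 0 to 1 genes, and -0.40 to 0.0048 for *Kcnd2*, -0.069 to 0.15 for *Kcnip2*, -0.15 to 0.033 for *Kcnh2*, -0.21 to 0.019 for *Kcnq1*, -0.061 to 0.098 for *Kcnj2* and -0.057 to 0.14 for *Kcnj11*. The interaction gave 0 to 1127 genes (without S1), and -0.16 to 0.53 for *Kcnq1*, -0.30 to 0.13 for *Kcnj2* and -0.35 to 0.026 for *Kcnh2*. The atrial slope called 0 (without S7) to 4 of the 9 and 187 to 1070 genes, and ran from -0.0023 to 0.076 for *Kcnh2*, -0.022 to 0.12 for *Kcnq1* and -0.093 to 0.014 for *Kcnd2*. The names called 0 (without WT1) to 1 of the 9 and 1630 to 3126 genes, and ran from -0.28 to 0.054 for *Kcnd3* and -0.11 to 0.054 for *Kcnj11*. No paired analysis was possible because the labels give no replicate numbers that tie libraries of different groups together.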

Other observations

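*Bmp10*, which in the adult mouse is made chiefly in the right atrium, divided the 7 libraries with a high atrial index. It was at 174 (S12), 1175 (S9) and 2093 CPM (S7) in 3 of them and at most 0.275 CPM in S5, S6, S10 and S11, while *Myl7*, shared by both atria, was at 77.3 (S5) to 2343 CPM (S11) in the 7. *Kcnj3* did not follow this division: it was at 29.1 to 62.9 CPM in the libraries with *Bmp10* and at 17.4 to 55.6 CPM in those without. *Kcnd3* was at 15.3 to 16.5 CPM in the libraries with *Bmp10* and at 5.01 to 9.89 CPM in the other 4 libraries of high index. These sets were seen in the data and were not tested.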
